A study of Rattus norvegicus with 6 samples.

Results

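The genes described here are the transcription factor NRF2 (gene Nfe2l2) and 8 of its best-known antioxidant targets: Nqo1, Gclc, Gclm, Txnrd1, Srxn1, Hmox1, Gpx2 and Prdx1. They were chosen by name, as the array rows whose platform annotation gives exactly 1 gene symbol from that list. All 9 were found among the 14506 genes measured, with 1 row each apart from Prdx1, which had 2. Their levels in the ileum were compared between 3 Zucker fa/fa rats with a duodenum-jejunum bypass (DJB) and 3 Zucker fa/fa rats with a sham operation. Zucker fa/fa rats, all 6 of them here, lack a working leptin receptor and are obese, and no lean rats enter the comparison. The operations were done on rats 20 weeks old, and the ileum was taken 14 days later. In the bypass, food left the stomach end of the duodenum straight into the jejunum, and bile and pancreatic juice joined it further down. In the sham operation the cut bowel was rejoined so that food kept its usual path. Each rat gave 1 Affymetrix whole-transcript array, and values are log2 expression levels after RMA, a method that corrects background, brings the arrays to a common distribution and joins the probes of each row. The single comparison of the design asks how ileal transcripts differ after the bypass.

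NRF2 is a transcription factor that is made all the time and destroyed almost as fast, because the adaptor KEAP1 hands it to a ubiquitin ligase built on CUL3. Oxidants and electrophiles modify cysteines of KEAP1, NRF2 then builds up, pairs with a small MAF protein and binds antioxidant response elements in the DNA of its targets. Since this control acts on the protein, the Nfe2l2 transcript is not a measure of NRF2 activity, and its targets are the usual readout. In the gut lining these genes are known for handling reactive food compounds, bile acids and oxidants made at the epithelial surface.

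None of the 9 genes passed the test over all genes, a limma adjusted p under 0.05, and their differences went both ways. Nqo1 was 1.48-fold higher and Gpx2 1.35-fold higher after DJB, while Gclm was 1.33-fold lower, and Nfe2l2 itself differed by -0.08 ± 0.11 (SE, 3 arrays a group). Over all genes, 0.772% passed that threshold, 0.393% higher and 0.379% lower. At an unadjusted p under 0.05, 2 of the 9 were higher and 1 was lower, against 9.82% and 4.45% of all genes. Differences are DJB minus sham on the log2 scale throughout, with the SE of the moderated fit. Of the 9, 5 had a difference above 0, a share near the 61.7% of all genes, and their median of 0.09 lay beside a median of 0.05 over all genes.

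**Figure D1:**
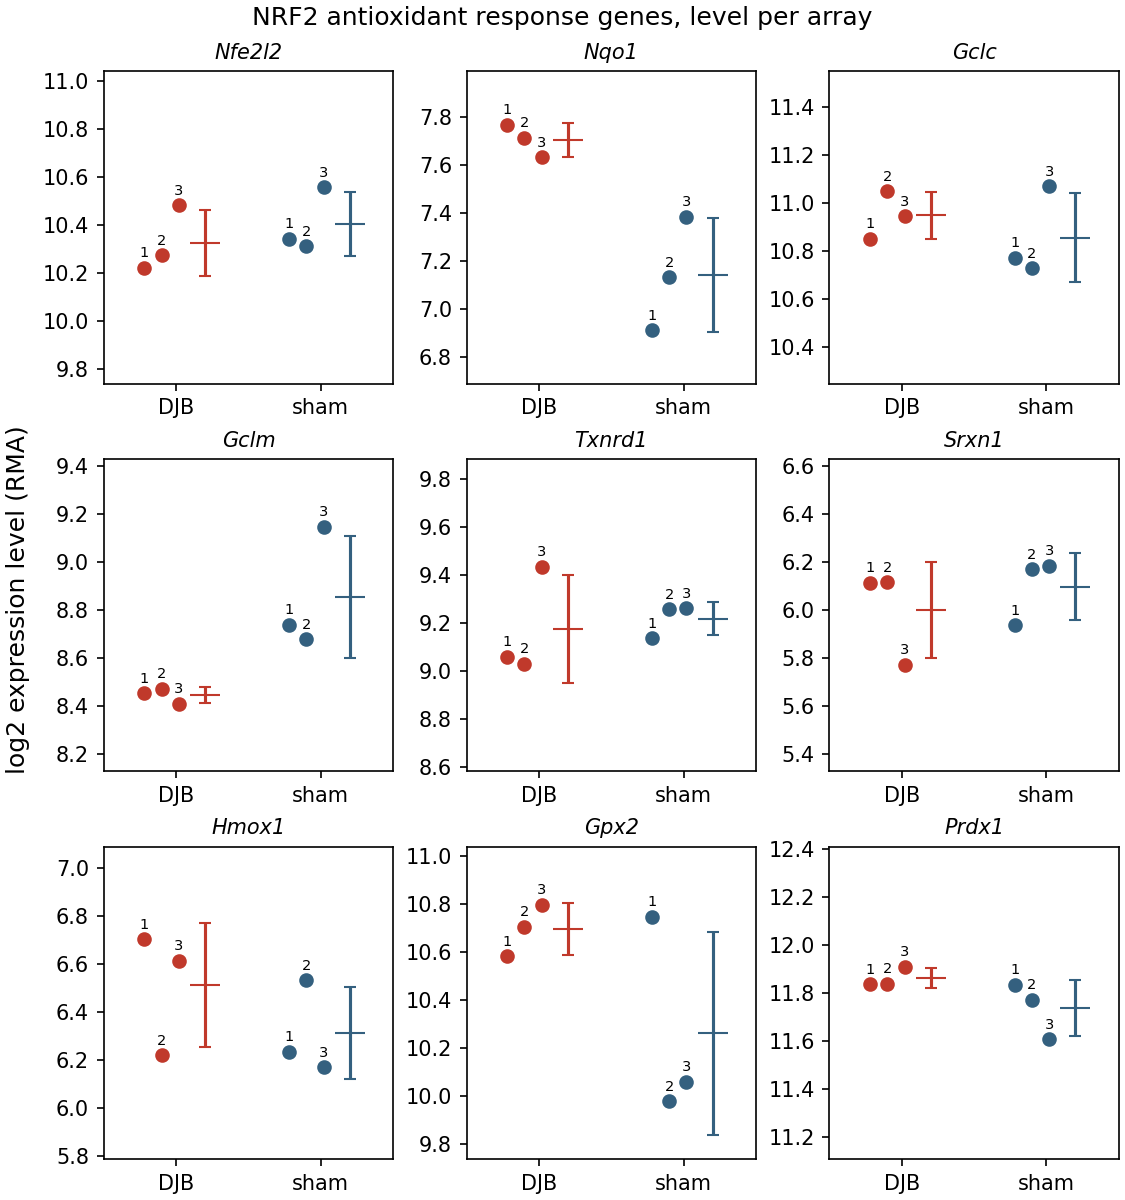
Log2 expression level (vertical axis) of each of the 9 genes in the 3 DJB and the 3 sham arrays. Points are arrays with their replicate number, and the bar beside them is the mean with the SD (n = 3). Every panel spans the same number of log2 units. Nqo1, Gclm and, by a narrow gap, Prdx1 have groups that do not overlap, and sham 1 stands with the DJB arrays for Gpx2.

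Nfe2l2 had levels of 10.22, 10.28 and 10.48 in DJB arrays 1 to 3, against 10.34, 10.31 and 10.56 in sham arrays 1 to 3. The groups overlapped, and array 3 was the highest in each. The 95% confidence interval of the difference ran from -0.33 to 0.18 (limma adjusted p = 0.799). The difference was -0.16 without DJB 3 and -0.0008 without sham 3.

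Transcripts were measured for 13 genes whose proteins hold NRF2 down or work with it on DNA. Of these, 0 passed over all genes, with 1 at an unadjusted p under 0.05. Keap1, the adaptor that senses electrophiles, differed by -0.01 ± 0.11. Cul3, the scaffold of its ligase, had 9.56, 9.57 and 9.51 in DJB arrays, against 9.30, 9.33 and 9.27 in sham arrays. These groups were tight and did not overlap, where 14.5% of all genes were apart with DJB higher. The difference of 0.25 ± 0.09 had an unadjusted p of 0.0198 and an adjusted p of 0.250. Rbx1, the ring subunit of the same ligase, differed by -0.004 ± 0.10. Sqstm1 encodes p62, which can draw KEAP1 away from NRF2 and is itself an NRF2 target, and it differed by -0.17 ± 0.10. Its groups did not overlap, and 6.56% of all genes were apart with DJB lower. Btrc and Gsk3b, of the route to NRF2 breakdown that does not need KEAP1, differed by -0.08 ± 0.11 and 0.08 ± 0.10. Bach1, a repressor that competes with NRF2 for the same DNA elements and is released by heme, differed by -0.09 ± 0.17, and its relative Bach2 by 0.26 ± 0.22. Among the small MAF partners, Mafg differed by 0.23 ± 0.12, Mafk by -0.09 ± 0.14 and Maff by -0.06 ± 0.13. The related factors Nfe2l1 and Nfe2 differed by 0.01 ± 0.09 and 0.07 ± 0.15. Bach2, Maff and Nfe2 had means under 6.11, the median of all rows, and dim rows understate a fold.

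**Figure D2:**
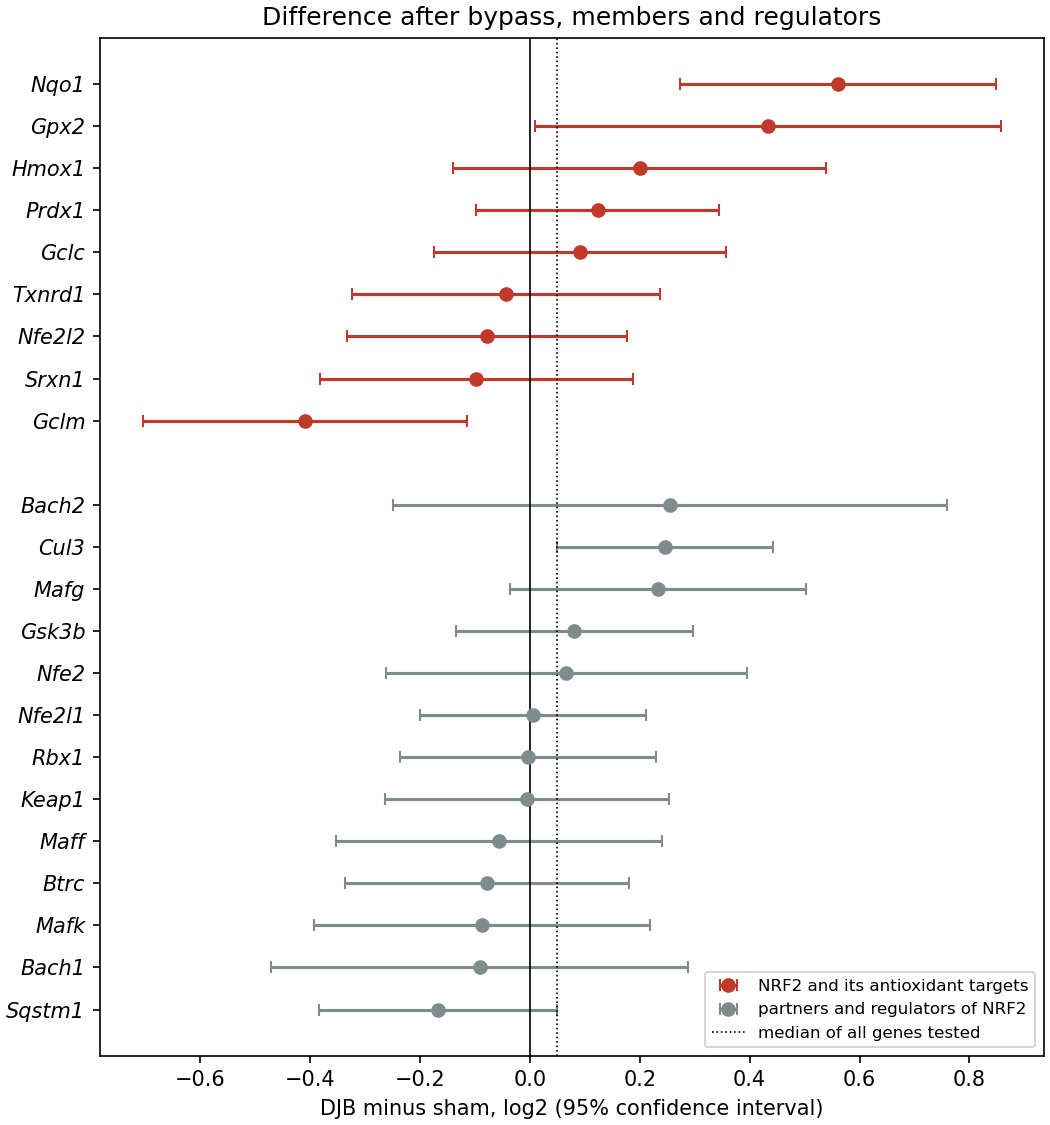
Difference of DJB minus sham (horizontal axis, log2) with its 95% confidence interval from the moderated fit, for the 9 genes above and the 13 partners and regulators of NRF2 under them. The dotted line is the median of all genes tested, 0.05. The intervals of Nqo1, Gpx2, Gclm and Cul3 leave out 0, and those of the other genes include it.

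Glutathione is made from glutamate, cysteine and glycine, and its rate-limiting step is done by glutamate-cysteine ligase, a pair of a catalytic subunit (Gclc) and a modifier subunit (Gclm). Gclm had 8.45, 8.47 and 8.41 in DJB arrays, against 8.74, 8.68 and 9.15 in sham arrays. Every DJB array lay below every sham array, the DJB arrays were close together, and sham 3 stood above the other sham arrays. The difference was -0.41 ± 0.13 (95% confidence interval -0.70 to -0.11, adjusted p = 0.210), and it was -0.26 without sham 3. Permuting the 3 against 3 arrays in full gave an exact two-sided p of 0.1, the smallest this design allows. Gclc had 10.85, 11.05 and 10.95 in DJB arrays, against 10.77, 10.73 and 11.07 in sham arrays. Its groups overlapped, and sham 3 was again the highest sham array. The difference was 0.09 ± 0.12 (95% confidence interval -0.17 to 0.36, adjusted p = 0.770). It ran from 0.028 without sham 2 to 0.20 without sham 3.

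Nqo1, the quinone reductase that takes quinones to hydroquinones in a single step and so avoids semiquinone radicals, had the lowest p of the 9. It had 7.77, 7.71 and 7.63 in DJB arrays, against 6.91, 7.13 and 7.39 in sham arrays. The DJB arrays lay together above all sham arrays, which were more spread. The difference of 0.56 ± 0.13 (95% confidence interval 0.27 to 0.85) ranked 232 by p among the 14506 genes and was larger in size than that of 98.1% of them. It did not pass over all genes (unadjusted p = 0.00168, adjusted p = 0.105), but did with a variance model that follows the intensity and is robust to outlying genes (adjusted p = 0.0373). The exact permutation p was 0.1. Leaving out any 1 array gave differences from 0.45 to 0.68.

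Hmox1, heme oxygenase 1, which opens heme into biliverdin, iron and carbon monoxide, had 6.70, 6.22 and 6.61 in DJB arrays, against 6.23, 6.53 and 6.17 in sham arrays. The groups overlapped: DJB 2 lay low and sham 2 high. The difference was 0.20 ± 0.15 (95% confidence interval -0.14 to 0.54, adjusted p = 0.590). It was 0.35 without DJB 2 and 0.31 without sham 2, but 0.10 without DJB 1 and 0.13 without sham 3. Macrophages, which clear old red cells, are known for high Hmox1. Their markers were higher in 7 of 9 genes measured, beside 61.7% of all genes, with 0 past the adjusted threshold. The mean marker level was 7.75 to 7.88 over the DJB arrays and 7.58 to 7.69 over the sham arrays, and its part in the Hmox1 values was not tested. In whole tissue, a change in the number of cells of a type and a change of RNA per cell cannot be told apart.

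The remaining members remove peroxides or keep the enzymes that do so in working order. Gpx2, the gastrointestinal glutathione peroxidase, a selenoprotein of the epithelium that is strong in crypts, had 10.58, 10.70 and 10.80 in DJB arrays, against 10.74, 9.98 and 10.06 in sham arrays. Sham 1 lay among the DJB arrays, and the other sham arrays lay well below. The difference was 0.43 ± 0.19 (95% confidence interval 0.01 to 0.86, unadjusted p = 0.0458, adjusted p = 0.340). It was 0.68 without sham 1 (adjusted p = 0.0732) and 0.29 without sham 2. Of 7 crypt and dividing cell markers measured, the 3 of dividing cells were higher with groups apart, as were 14.5% of all genes. The 4 of the crypt base were lower, with Olfm4 at -0.02 ± 0.09, Ascl2 at -0.12 ± 0.18 and Smoc2 at -0.19 ± 0.14. The mitotic cyclin gene Ccnb1 rose by 0.60 ± 0.11 (adjusted p = 0.0497), a call that ended whichever array was left out, and Top2a and Pcna differed by 0.33 ± 0.12 and 0.27 ± 0.10. The stem cell receptor gene Lgr5 differed by -0.63 ± 0.15 (adjusted p = 0.122). It was the only crypt base marker with groups apart, where 6.56% of all genes were apart with DJB lower. The mean of the 7 was 8.62 to 8.76 over the DJB arrays and 8.61 to 8.72 over the sham arrays, and the part of these cells in the Gpx2 values was not tested.

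Prdx1 encodes a peroxiredoxin that reduces hydrogen peroxide through a pair of cysteines. Its row of highest mean had 11.84, 11.84 and 11.91 in DJB arrays, against 11.83, 11.77 and 11.61 in sham arrays. The groups were apart by less than a hundredth of a log2 unit, and the difference was 0.12 ± 0.10 (95% confidence interval -0.10 to 0.35, adjusted p = 0.611), and 0.059 without sham 3. The second Prdx1 row had 11.74, 11.71 and 11.77 in DJB arrays, against 11.71, 11.64 and 11.49 in sham arrays, a difference of 0.13 ± 0.10. The rows carry the same accessions in the annotation, so they are not independent measurements of the gene.

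Srxn1, sulfiredoxin, repairs peroxiredoxins whose cysteine has been oxidised too far. It had 6.11, 6.12 and 5.77 in DJB arrays, against 5.94, 6.17 and 6.19 in sham arrays. Only DJB 3 lay below all sham arrays, and the difference of -0.10 ± 0.13 (95% confidence interval -0.38 to 0.19, adjusted p = 0.773) was 0.02 without it. Srxn1 was the only 1 of the 9 with a mean under 6.11, the median of all rows, and dim rows understate a fold. Txnrd1, the cytosolic thioredoxin reductase, a selenoprotein that passes electrons of NADPH to thioredoxin, had 9.06, 9.03 and 9.43 in DJB arrays, against 9.14, 9.26 and 9.26 in sham arrays. DJB 3 was the highest and the other DJB arrays the lowest of the 6. The difference was -0.04 ± 0.12 (95% confidence interval -0.32 to 0.24, adjusted p = 0.904), and its sign turned without DJB 1 (0.01) or DJB 2 (0.03).

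Of the 9, 3 had groups that did not overlap, 2 higher and 1 lower, while among all genes 14.5% were apart with DJB higher and 6.56% with DJB lower. For the 3 members with the widest difference, likeness to other genes was measured as the root-mean-square distance between profiles centred on their mean over the 6 arrays, in log2 units. The nearest to Nqo1 was Ptgr1 (distance 0.07), which encodes prostaglandin reductase 1, an enzyme that also reduces reactive alkenals. Next came Alas1 (0.07), the first enzyme of heme synthesis, and Tmigd1 (0.08), a cell adhesion protein of the epithelium. The nearest member to Nqo1 was Gclc at 0.26, with 2917 other genes closer. The nearest to Gclm were Ovol1 (0.03), Fhl2 (0.05) and Acsf2 (0.05), and its nearest member was Nfe2l2 (0.20). The nearest to Gpx2 were Ccl6 (0.09), Snrpf (0.13) and Fat3 (0.13), and its nearest member was Prdx1 (0.26).

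Promoter sequence was at hand for 8 of the 9 genes, in a RefSeq table of the build GRCr8 with a window from 250 bases before to 50 bases after each transcript start, and with 2 starts for Txnrd1. The windows were searched on both strands for TGACNNNGC, the core of the antioxidant response element. It was found in 5 of the 9 windows, those of Nfe2l2, Gclm, Gpx2, Prdx1 and the second start of Txnrd1, and in 12.1% of all 33469 windows in the table. The sequence around each match is shown because it is the letters that NRF2 with a small MAF partner is known to read. Each is written along the gene's own strand, 5′ to 3′, with the match in capitals, which in all but Nfe2l2 reads as the core on the opposite strand.
Gclm, chr2:213031947-213031987, plus strand, match 172 to 164 bases before the start: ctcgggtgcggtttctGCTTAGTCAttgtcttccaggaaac
Gpx2, chr6:101230022-101230062, minus strand, match 13 to 5 bases before the start: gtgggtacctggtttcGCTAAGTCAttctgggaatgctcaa
Prdx1, chr5:135383755-135383795, plus strand, match 135 to 127 bases before the start: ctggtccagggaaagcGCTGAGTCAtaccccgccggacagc
Txnrd1, chr7:22755958-22755998, minus strand, match 78 to 70 bases before the second start: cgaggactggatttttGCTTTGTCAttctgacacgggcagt
Nfe2l2, chr3:81028950-81028977, minus strand, match 39 to 47 bases after the start: tgctccgactagccatTGACGCCGCctc

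The antioxidant element can overlap the site of AP-1, the JUN and FOS dimer, here searched as TGANTCA, which 7.3% of all windows held. The Prdx1 match contains such a site, and another lay 248 to 242 bases before the Prdx1 start. In Srxn1 no core of the antioxidant element was found, but 2 AP-1 sites were, shown because their letters differ from the core next to the shared bases.
Srxn1, chr3:161064734-161064772, plus strand, match 62 to 56 bases before the start: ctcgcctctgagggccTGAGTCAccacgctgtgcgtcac
Srxn1, chr3:161064791-161064829, plus strand, match from 5 bases before the start to base 2 after it: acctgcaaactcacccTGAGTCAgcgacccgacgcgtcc

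The windows of Nqo1 and Gclc held neither set of letters. The genes with a match thus included the lowest of the 9 differences (Gclm, -0.41) and the second highest (Gpx2, 0.43), and the highest (Nqo1, 0.56) had none in this window. A match is a run of letters and not a measured binding site.

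Beyond the 9 genes, 83 genes of the wider redox network were measured in 8 groups. Of these, 4 rose (4.82%, against 0.393% of all genes) and 0 fell over all genes, where 0.379% of all genes fell. At an unadjusted p under 0.05, 15 were higher and 10 lower, against 9.82% and 4.45% of all genes. The DJB and sham arrays did not overlap in 30 of the 83 (36.1%), against 21.1% of all genes. The 8 groups of genes were chosen with earlier results of these data known, and the median difference of the 83 genes was 0.01.

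**Figure D3:**
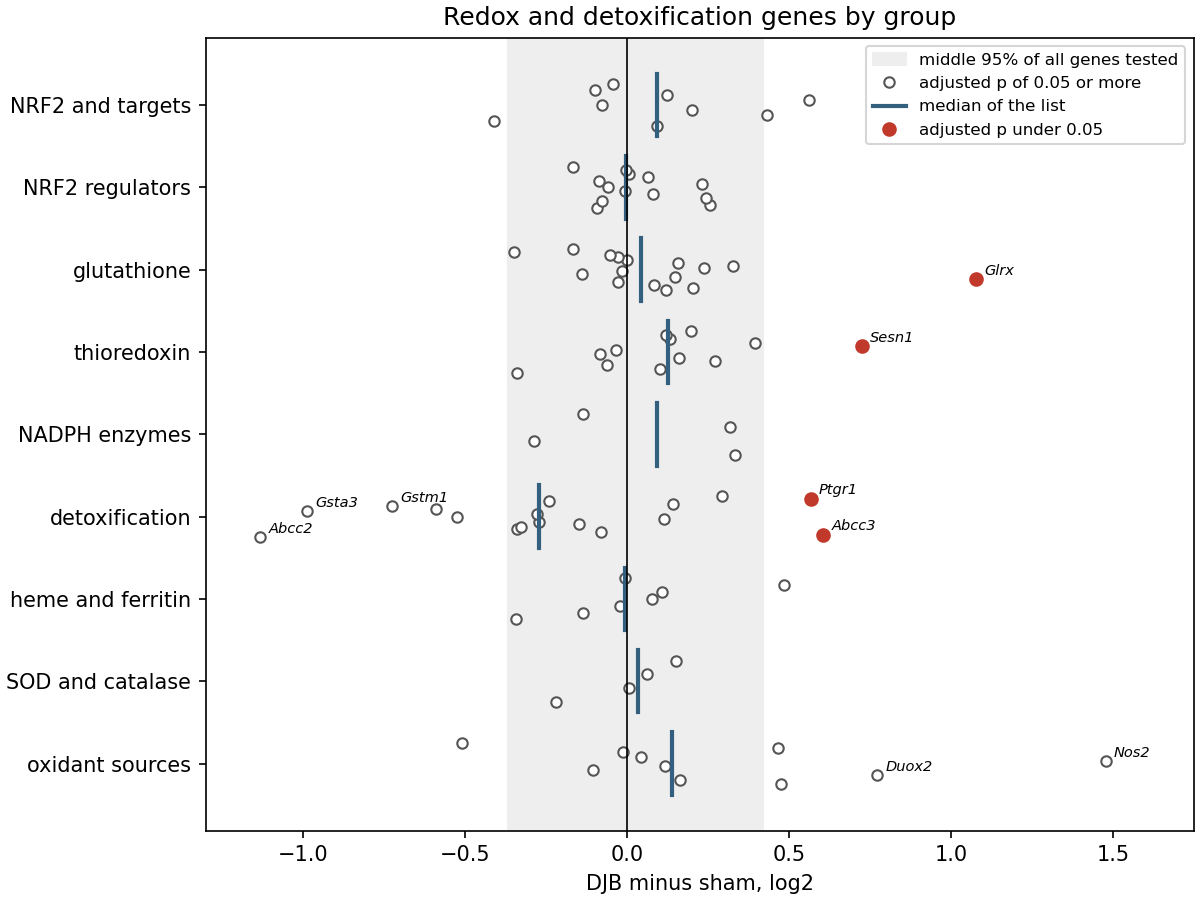
Difference of DJB minus sham (horizontal axis, log2) for each gene of the 9 NRF2 genes (top line) and the 8 other redox groups. Filled points have a limma adjusted p under 0.05, open points do not, the blue bar is the median of the group, and the grey band holds the middle 95% of all genes, from -0.37 to 0.42. The genes that passed are Glrx, Sesn1, Ptgr1 and Abcc3, all to the right.

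Among 16 genes of glutathione synthesis, recycling and use, 1 rose. Glrx, glutaredoxin 1, which takes glutathione off protein cysteines, had 10.50, 10.80 and 11.00 in DJB arrays, against 9.65, 9.76 and 9.66 in sham arrays. The groups were far apart, and the rise was 1.08 ± 0.13 (2.11-fold, adjusted p = 0.00938). It passed without any 1 array apart from sham 3, without which adjusted p was 0.0545. Slc3a2, the heavy chain that the cystine importer and other amino acid exchangers share, had 11.07, 10.89 and 10.94 in DJB arrays, against 11.28, 11.31 and 11.37 in sham arrays, a difference of -0.35 ± 0.09 (adjusted p = 0.155). The cystine-specific chain Slc7a11 differed by -0.17 ± 0.13. Its row was dim, with means of 5.23 (DJB) and 5.39 (sham), under 6.11, the median of all rows. The second enzyme of glutathione synthesis, Gss, differed by -0.03 ± 0.10, and glutathione reductase, Gsr, by 0.001 ± 0.10.

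Of 12 thioredoxin, peroxiredoxin, sestrin and methionine sulfoxide reductase genes, 1 rose. Sesn1, a sestrin known as a p53 and FOXO target that restrains mTORC1, had 9.27, 9.23 and 8.91 in DJB arrays, against 8.34, 8.42 and 8.47 in sham arrays. The rise was 0.73 ± 0.12 (1.65-fold, adjusted p = 0.0293), and it passed without DJB 3 but was lost when any other array was left out (adjusted p 0.0768 to 0.113). Prdx3, the mitochondrial peroxiredoxin, had 10.20, 10.10 and 10.01 in DJB arrays, against 9.87, 9.86 and 9.76 in sham arrays, a difference of 0.27 ± 0.10 (adjusted p = 0.249). In this group 6 genes lay wholly higher in DJB arrays and 1 wholly lower, where 14.5% and 6.56% of all genes did so. The lower gene was the methionine sulfoxide reductase Msra, at -0.34 ± 0.12, and its relative Msrb1 was among the higher genes. The median difference of the group was 0.13.

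The 4 NADPH-generating enzymes measured had groups that did not overlap, 2 higher and 2 lower, as 21.1% of all genes had, and 0 passed. Idh1, the cytosolic isocitrate dehydrogenase, differed by 0.33 ± 0.09 (adjusted p = 0.171) and Taldo1, transaldolase of the pentose phosphate pathway, by 0.32 ± 0.10 (adjusted p = 0.190). Malic enzyme, Me1, a known NRF2 target, differed by -0.29 ± 0.10, and transketolase, Tkt, by -0.14 ± 0.11.

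Of 17 further detoxification and export genes known as NRF2 targets, 2 rose and 0 fell, where 0.393% and 0.379% of all genes did. Yet 12 had a difference below 0 and the median was -0.27, while 61.7% of all genes had a difference above 0. At an unadjusted p under 0.05, 3 were higher and 6 lower, against 9.82% and 4.45% of all genes. Groups were apart in 4 with DJB higher and 6 with DJB lower, against 14.5% and 6.56% of all genes. Ptgr1, the gene whose profile lay nearest to that of Nqo1, had 11.29, 11.29 and 11.21 in DJB arrays, against 10.57, 10.71 and 10.81 in sham arrays. It rose by 0.57 ± 0.10 (1.48-fold, adjusted p = 0.0423). Abcc3, a basolateral pump of conjugates and bile acids, had 9.63, 9.55 and 9.56 in DJB arrays, against 9.06, 8.85 and 9.01 in sham arrays, and rose by 0.61 ± 0.10 (1.52-fold, adjusted p = 0.0289). Both calls ended whichever array was left out (adjusted p 0.0815 to 0.160 for Ptgr1 and 0.0718 to 0.113 for Abcc3). The widest differences below 0, chosen after their values were seen, were those of the apical pump Abcc2 at -1.13 ± 0.27 (adjusted p = 0.121), and of the glutathione transferases Gsta3 at -0.99 ± 0.22 (adjusted p = 0.0950) and Gstm1 at -0.73 ± 0.19 (adjusted p = 0.144). Abcc2 had 7.64, 7.22 and 6.81 in DJB arrays, against 7.76, 8.59 and 8.71 in sham arrays. Gsta3 had 7.14, 6.61 and 6.11 in DJB arrays, against 7.61, 7.66 and 7.55 in sham arrays. The DJB arrays lay wholly below the sham arrays for both genes. Of the 13 alternative settings tried, Abcc2 passed only without sham 1 (-1.43, adjusted p = 0.0345) and Gsta3 only without DJB 1 (-1.25, adjusted p = 0.0116). Gsta4, another transferase named after its values were seen, differed by -0.59 ± 0.11 (adjusted p = 0.0589) and passed after quantile normalisation was repeated (adjusted p = 0.0407).

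**Figure D4:**
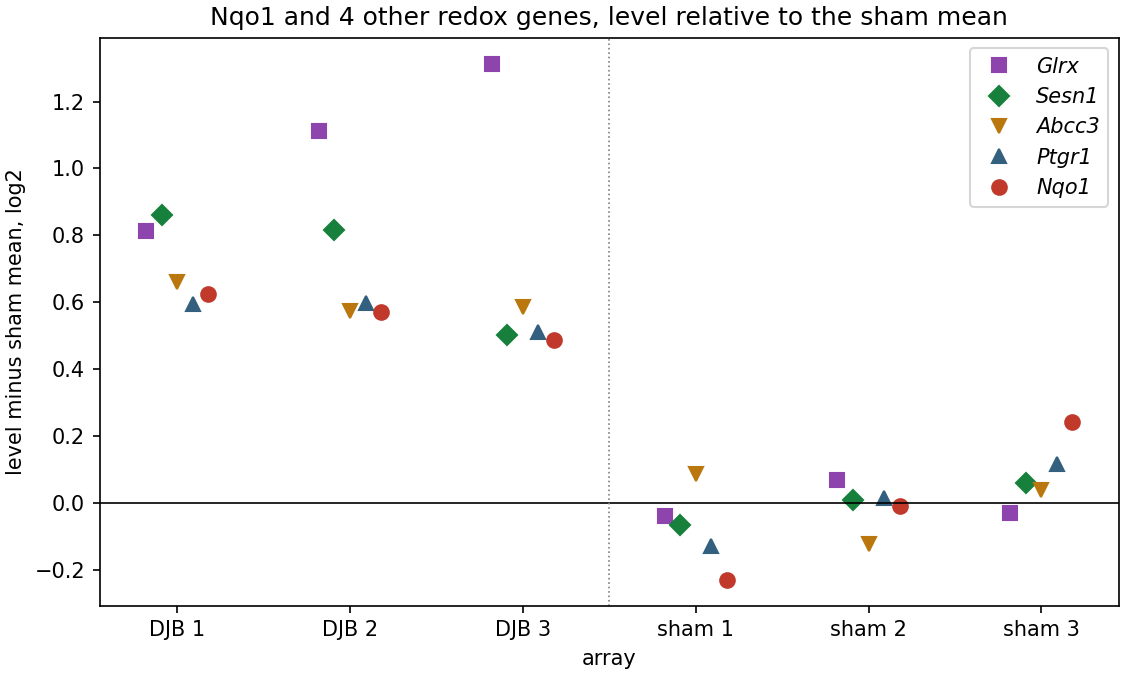
Level of Nqo1 and of the 4 redox genes that passed the test, each minus its own sham mean (vertical axis, log2), in the 6 arrays (horizontal axis; points are set slightly apart sideways). Nqo1 and Ptgr1 lie close together in every array, and the DJB arrays of all 5 genes lie above their sham arrays.

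Heme breakdown and iron storage genes gave 0 calls of 7. Slc40a1, ferroportin, the iron exporter, had 8.18, 8.17 and 8.25 in DJB arrays, against 7.64, 7.76 and 7.75 in sham arrays, and its difference of 0.49 ± 0.09 came close to the threshold (adjusted p = 0.0530), which it passed with dim genes left out (adjusted p = 0.0191). Biliverdin reductase A, Blvra, which acts after heme oxygenase, had 7.21, 7.25 and 8.29 in DJB arrays, against 7.77, 8.01 and 7.99 in sham arrays. DJB 3 stood above all others and the other DJB arrays below, with a difference of -0.34 ± 0.25. The ferritin chains Fth1 and Ftl1 differed by -0.02 ± 0.12 and 0.08 ± 0.09.

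Superoxide dismutases and catalase, 4 genes, gave 0 calls, with Cat at -0.22 ± 0.13 and the extracellular Sod3 at 0.15 ± 0.13. The enzymes that produce oxidants gave 0 calls of 10 and a median of 0.14. Noxo1, an organiser of the epithelial NADPH oxidase, differed by 0.47 ± 0.12 (adjusted p = 0.141) and Cyba, the membrane subunit of these oxidases, by 0.48 ± 0.13 (adjusted p = 0.149). Nos2, the inducible nitric oxide synthase, chosen after its values were seen, had 6.21, 6.27 and 8.48 in DJB arrays, against 5.48, 5.54 and 5.50 in sham arrays. All DJB arrays lay above the sham arrays, and DJB 3 stood far above the others. The difference was 1.48 ± 0.50 (adjusted p = 0.236). Without DJB 3 it was 0.73 (adjusted p = 0.0313), the only 1 of the 13 alternative settings in which Nos2 passed. The sham mean of Nos2, 5.51, lay under 6.11, the median of all rows. In the other direction, xanthine dehydrogenase, Xdh, also chosen after its values were seen, differed by -0.51 ± 0.21 (unadjusted p = 0.0397, adjusted p = 0.323), with DJB arrays at 10.95, 10.34 and 11.34, against 11.30, 11.42 and 11.42 in sham arrays.

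The tissue label was checked against marker genes. Epithelial markers had mean levels of 12.13 to 12.18 over the DJB arrays and 12.05 to 12.12 over the sham arrays, and the ileal bile acid binding protein Fabp6 was at 13.88 in the DJB mean and 13.57 in the sham mean. All 3 ileal enterocyte markers measured were higher with groups apart, as were 14.5% of all genes. The bile acid importer Slc10a2 rose by 1.73 ± 0.22 (3.32-fold, adjusted p = 0.0106), while Fabp6 differed by 0.30 ± 0.10 and the exporter subunit Slc51a by 0.37 ± 0.13. The Slc10a2 call was lost with the variance model that follows the intensity (adjusted p = 0.0511) and kept under the other alternative settings. Exocrine pancreas markers averaged 4.94 to 5.08 over the DJB arrays and 4.77 to 5.25 over the sham arrays, under the median of all rows. Neutrophil markers, at 4.34 to 4.54 over the DJB arrays and 4.20 to 4.41 over the sham arrays, were equally dim. Smooth muscle markers were higher in 6 of 6 genes, beside 61.7% of all genes, with 0 past the threshold and 1 with groups apart. Their mean level was 10.83 to 11.09 over the DJB arrays and 10.47 to 10.99 over the sham arrays. The smallest of these differences was that of Myh11, at 0.005 ± 0.16. The hemoglobin gene Hbb, a sign of blood in the tissue, had 8.70, 7.80 and 7.67 in DJB arrays, against 9.30, 8.65 and 9.21 in sham arrays, a difference of -0.998 ± 0.27 (adjusted p = 0.152). The part of ileal enterocytes, muscle and blood in the values above was not tested.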

How the data were processed

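Ileum RNA of 6 rats was hybridised to 1 array each. The deposited table holds log2 values that the authors made with RMA (no version named), per the submitters' processing notes; the values were used as deposited. The arrays had medians of 6.08 to 6.19 and correlated at 0.987 to 0.993 over 29214 rows. Their number limits the precision, and the labels name no batch.

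Rows with 1 gene symbol in the platform annotation (15310) gave 14506 genes, taking the row of highest mean over all arrays. DJB minus sham was tested with limma 3.58.1 in R 4.3.3 (lmFit, eBayes, no covariate, two-sided), with Benjamini-Hochberg adjustment over all genes and a threshold of 0.05; the fit was tested on simulated data. Replicates are separate rats, per the labels.

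The members and the gene lists were chosen with earlier results of these data known. Named genes are the 9 members, all regulators measured, and from every other pathway list the called genes and the 2 of lowest p (marker lists are outside this rule); other genes named were added for their known role or after their values were seen. Alternatives were a replicate block, quantile normalisation repeated, centring on array medians, dim genes left out, a trended robust variance model, rows averaged, all rows tested, and each array left out. Promoter windows came from RefSeq (GRCr8). Figures used matplotlib 3.10.9 in Python 3.11.15.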

Additional observations from a re-analysis of the deposited data

How the results depend on the processing

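Each of the 9 NRF2 genes stayed above an adjusted p of 0.05 under all 13 alternatives, apart from Nqo1 under the trended robust variance model, which gave 1 member higher, and Srxn1 with dim genes left out, which removes it. With 3 arrays a group, the 95% intervals of 6 of the 9 genes include 0. The count of members with a difference above 0 was 5 or 6. Signs turned for Txnrd1 (-0.17 to 0.029 over the arrays left out, 0.014 without DJB 1 and 0.029 without DJB 2) and for Srxn1 (-0.18 to 0.017, the highest without DJB 3). Over all genes, 57 higher and 55 lower calls became 27 and 23 with the replicate block, 129 and 96 with dim genes left out, and 189 and 124 with the trended robust model. Leaving out 1 array gave 22 to 38 higher and 10 to 70 lower. Of the other redox genes, 4 higher and 0 lower became 1 higher with the replicate block or with all rows tested, in each case Glrx, but 5 higher with dim genes left out and 6 with the trended robust model. The lower count was 1 with quantile normalisation repeated, arrays centred, dim genes left out or rows averaged, in each case Gsta4, and 2 with the trended robust model. It was 0 to 1 over the arrays left out, where the higher count was 0 to 3. The labels name no pairing of the rats by replicate number. Deviations of same-numbered arrays correlated at 0.005, -0.121 and -0.149 over genes, and those of differently numbered arrays at -0.057 to 0.17. With 3 arrays a group, these values cannot settle whether rats were paired. The cause of these changes was not tested, beyond fewer genes tested in the dim filter, more rows in the all-row test and fewer arrays in those left out.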

Other observations

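The transcripts of the catalytic and modifier subunits of glutamate-cysteine ligase were also set against each other within the arrays, a comparison chosen after the values were seen. The log2 difference of Gclc minus Gclm, set against its sham mean, was 0.40, 0.58 and 0.53 in DJB arrays, against 0.03, 0.05 and -0.08 in sham arrays. The ratio of the subunit transcripts was thus 1.42-fold higher after DJB (0.50 on the log2 scale, exact two-sided permutation p = 0.1, the smallest 3 against 3 arrays allow). The groups were further apart than for either gene alone, and sham 3 was the highest sham array of both. Neither gene passed over all genes, and since the pair was picked for these values, the p is a description and no test of an unequal change.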
